A study of Luscinia megarhynchos and Luscinia luscinia with 4 samples.

Results

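Copies of *POLR2B*, *POLD2* and *CHRAC1*, genes for subunits of RNA polymerase II, DNA polymerase delta and the chromatin accessibility complex, were followed on the germline-restricted chromosome (GRC) of 2 nightingale species. The 3 genes were taken by symbol from an expression table of GRC genes, each had 1 identifier (XP_005044859, XP_016159073 and XP_005042568 in the order above), and they made up 3 of the 799 identifiers and of the 769 symbols in it. The paper counted far fewer GRC genes, because it kept only those with a minimum share of their coding region found. Many of the 799 identifiers thus lie outside its set, and the shares, medians and ranks below are over all identifiers. The mRNA came from wild adult birds: an ovary of a female and a testis of a male *Luscinia megarhynchos*, and an ovary of a female and a testis of a male *L. luscinia*. No bird was treated, each ovary came from the female whose somatic genome served as the reference of its species, and the sources name no pooling of birds. The 4 libraries hold 1 bird each, so there were no replicates and no test between birds was possible. Tissue, sex and bird cannot be told apart in the comparisons between ovary and testis.

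The GRC of songbirds is carried by germ cells and eliminated from somatic cells, and its genes are copies of genes on the ordinary A chromosomes, which every cell keeps. *POLR2B* encodes the second-largest subunit of RNA polymerase II, which together with the largest subunit forms the active centre that transcribes protein-coding genes. *POLD2* encodes an accessory subunit of DNA polymerase delta, which joins the catalytic subunit to the rest of an enzyme that copies the lagging strand and fills gaps in DNA repair. *CHRAC1* encodes a small histone-fold protein that pairs with POLE3 in a nucleosome-sliding complex built around an ISWI ATPase. None of these background roles was measured here, and a level given below is that of mRNA assigned to the GRC copy, not to the A-chromosomal gene. Reads had been kept only if they mapped uniquely to GRC exons, and the part that reads from the similar A-chromosomal copies play in the values was not tested.

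Levels are FPKM, reads scaled to the length of the gene and to the reads of the library, as the authors deposited them. Of the 799 identifiers, the ovary and testis of *L. megarhynchos* had 198 and 183 above 0, and those of *L. luscinia* had 140 and 135. The median of those above 0 lay between 0.0169 and 0.0319 FPKM. What a read is worth in FPKM differs widely between identifiers. How that enters the medians, the multiples of them and the ranks below was not tested. The table holds GRC genes only, so the tissue labels could not be checked against the usual markers of ovary and testis. Among the markers of germ cells, oocytes, spermatids and somatic gonad cells looked for, 4 had a GRC row. Those of *MOS*, an oocyte kinase, and *SPAG6*, a sperm tail protein, were at 0 in all 4 libraries, that of *SYCP1*, a protein of the synaptonemal complex, was above 0 in 3 and that of *DMRT1*, a gonadal transcription factor, in both ovaries only. In whole tissue, fewer GRC-carrying cells and less RNA per cell cannot be told apart. The paper advises against comparing FPKM between datasets, because the part of the cells that carried a GRC is unknown. It describes such cells as only some of the testis and very few of the ovary, with usually more GRC copies per germ cell in females. It also reports that copy numbers of GRC genes vary between the species and between birds. How these enter the ratios below was not tested.

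*POLR2B* was the member with reads in all 4 libraries, *POLD2* had reads in *L. megarhynchos* only and *CHRAC1* in *L. luscinia* only. Above 0 were thus 2 of the 3 genes in each library, where the share of all identifiers above 0 was 24.8% for the ovary and 22.9% for the testis of *L. megarhynchos*, and 17.5% for the ovary and 16.9% for the testis of *L. luscinia*. For *L. megarhynchos*, at least 1 FPKM was reached by 2 of them in the ovary (2.63% of all identifiers) and by 1 in the testis (3.13%). For *L. luscinia* it was reached by 1 in the ovary (2.13%) and by 0 in the testis (3.13%). The genes were picked with these levels known, so the excess over all identifiers is no finding about them.

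*POLR2B*, the RNA polymerase II gene, stood in *L. megarhynchos* at 4.32 FPKM in the ovary and at 0.161 FPKM in the testis. In *L. luscinia* it stood at 0.879 FPKM in the ovary and at 0.375 FPKM in the testis. The order of its levels was therefore *L. megarhynchos* ovary, *L. luscinia* ovary, *L. luscinia* testis and *L. megarhynchos* testis, with both ovaries above both testes, and with single libraries no spread says which neighbours in that order differ. An FPKM above 0 in all 4 libraries was shared by 41 identifiers (5.13%).

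The place of *POLR2B* among the GRC genes moved with its level. It was number 12 of 198 in the *L. megarhynchos* ovary, between *HAUS6* at 8.49 FPKM and *POLD2* at 4.25 FPKM, and 256 times the median of that library. It was number 55 of 183 in the *L. megarhynchos* testis, at 6.81 times the median. In *L. luscinia* it was number 18 of 140 in the ovary, at 42.1 times the median, and number 33 of 135 in the testis, at 11.8 times the median. The lowest of these places, in the *L. megarhynchos* testis, still had 69.9% of the identifiers above 0 below it, yet among identifiers of at least 0.1 FPKM only 12.7% were lower.

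*POLD2*, the DNA polymerase delta gene, was at 4.25 FPKM in the ovary of *L. megarhynchos* and at 16.2 FPKM in its testis, and was listed at 0 in both *L. luscinia* libraries. Its testis level was the highest of any of the 3 genes in any library. In that testis it was number 2 of 183 identifiers, 684 times the median, with an uncharacterised gene (*LOC101810338*, 36.3 FPKM) above it and another (*LOC101812416*, 11.6 FPKM) below it. In the *L. megarhynchos* ovary it was number 13 of 198, at 252 times the median, directly below *POLR2B*. Both *L. megarhynchos* libraries above 0 and both of *L. luscinia* at 0 was a pattern of 60 identifiers (7.51%).

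*CHRAC1*, the histone-fold gene, had the reverse distribution between the species. It was listed at 0 in both *L. megarhynchos* libraries, and in *L. luscinia* it stood at 3.85 FPKM in the ovary and at 0.535 FPKM in the testis. In the ovary it was number 7 of 140 identifiers, 184 times the median, between *LOC101813248* at 4.12 FPKM and *ALG13* at 3.70 FPKM. In the testis it was number 31 of 135, 16.8 times the median and 2 places above *POLR2B*. The pattern of *CHRAC1*, above 0 in both *L. luscinia* libraries and at 0 in both of *L. megarhynchos*, was that of 43 identifiers (5.38%). A value of 0 does not separate a gene copy with no reads from one that is not on the GRC assembly of that species.

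**Figure D1:**
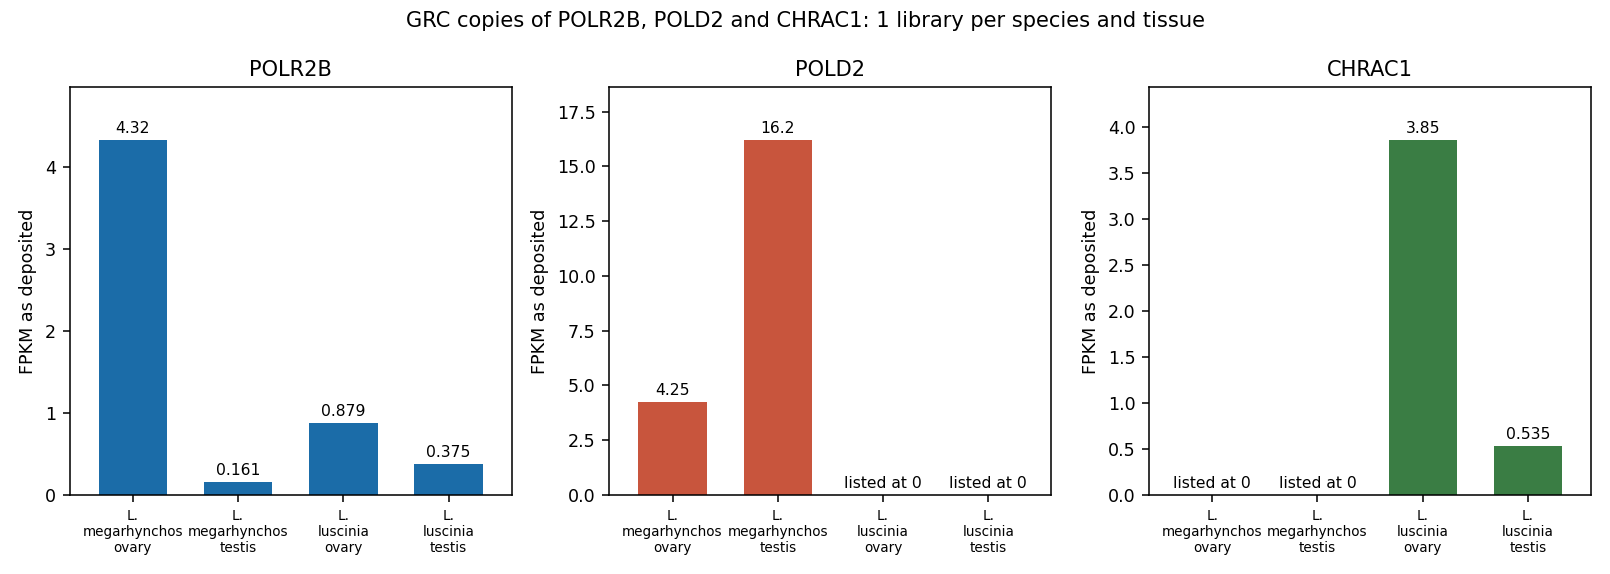
FPKM as deposited (vertical axes, each from 0 and with its own scale) of *POLR2B*, *POLD2* and *CHRAC1* in the *L. megarhynchos* ovary and testis and the *L. luscinia* ovary and testis, 1 bar per library and no error bars because each library is 1 bird. *POLR2B* has 4 bars, highest in the *L. megarhynchos* ovary (4.32), while *POLD2* is listed at 0 in *L. luscinia* and *CHRAC1* in *L. megarhynchos*.

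**Figure D2:**
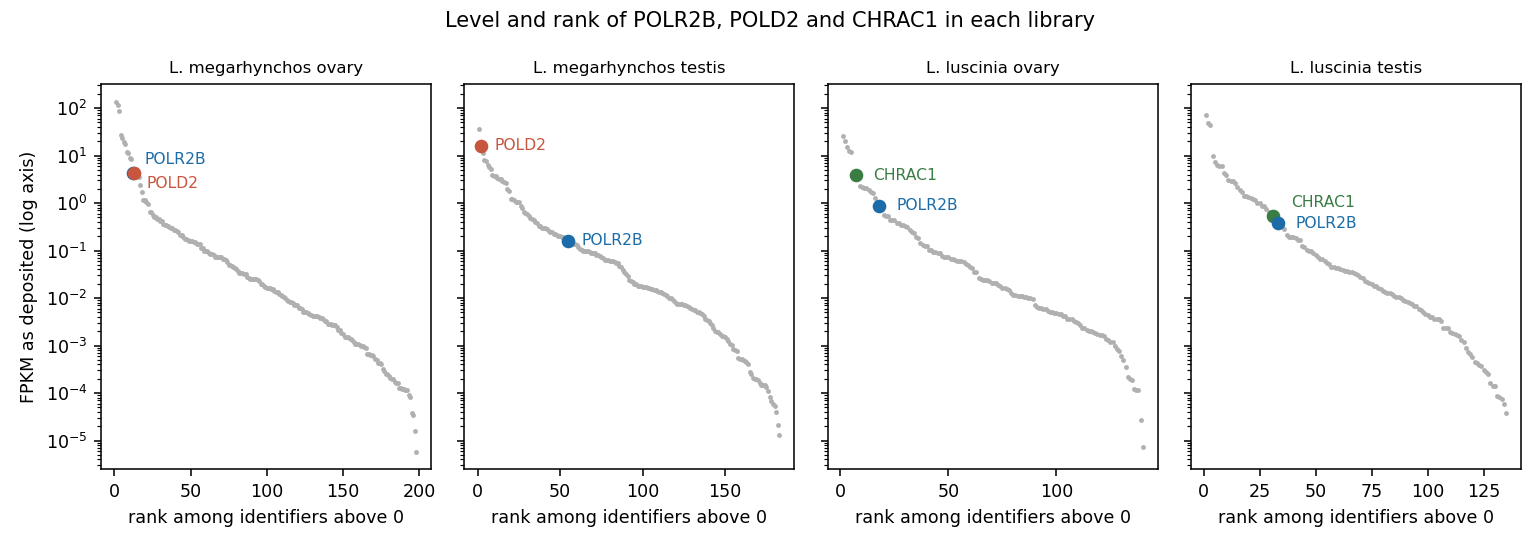
FPKM (log axis) against rank, from the highest, for every identifier above 0 in each library (grey), with the 3 genes in colour. In the *L. megarhynchos* ovary *POLR2B* and *POLD2* overlap at ranks 12 and 13, *POLD2* is number 2 in the *L. megarhynchos* testis, and *CHRAC1* is number 7 in the *L. luscinia* ovary.

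The comparison of ovary with testis asked how the expression of each GRC copy was divided between the female and the male gonad. Within a species the length of a gene is the same in both tissues, so the ratio of its 2 FPKM values gives a pair of whole read numbers once the relative depth of the libraries is known. That depth was inferred from the FPKM values, not read from library totals. It was the most frequent ratio between the 2 libraries, or the small multiple of it that gave the simplest read pairs. By it the *L. megarhynchos* ovary library had 1.63 times the reads of the testis library, and the *L. luscinia* ovary library 0.733 times. At these ratios lay 7 identifiers in *L. megarhynchos* and 8 in *L. luscinia*. Pairs were found for 114 of 114 identifiers above 0 in both tissues of *L. megarhynchos* and for 95 of 95 in *L. luscinia*. They are in lowest terms, so a true pair may be a whole multiple, and the exact 95% intervals below cover counting error only, not birds.

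*POLR2B* was higher in the ovary in both species. In *L. megarhynchos* it had 873 reads in the ovary and 20 in the testis, which makes the ovary level 26.8 times that of the testis (17.3 to 44.1). In *L. luscinia* it had 170 reads in the ovary and 99 in the testis, and the ovary level was 2.34 times that of the testis (1.82 to 3.03). The counting intervals of both species lie above 1 and do not overlap each other. The ovary over testis ratio of *L. megarhynchos* was 11.45 times that of *L. luscinia*, with a counting interval of 6.78 to 20.0, and whether it would differ so between other birds was not tested.

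*POLD2* went the other way from *POLR2B* in the same 2 birds. With 589 reads from the *L. megarhynchos* ovary against 1379 from the testis, it had the largest pair in lowest terms of the 3 genes. Its ovary level was 0.262 times that of the testis (0.238 to 0.289), so that the testis level was 3.81 times that of the ovary (3.46 to 4.21). In these birds *POLR2B* and *POLD2* were thus nearly level in the ovary, at 4.32 and 4.25 FPKM, and far apart in the testis, at 0.161 and 16.2 FPKM.

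*CHRAC1* was higher in the *L. luscinia* ovary than in the testis, on fewer reads in lowest terms. It had 58 reads in the ovary and 11 in the testis, and the ovary level was 7.19 times that of the testis (3.74 to 15.2). This interval lies above that of *POLR2B* in the same 2 birds (1.82 to 3.03).

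The ratios were then set beside those of all identifiers. A difference of at least 4-fold was counted on the scale of FPKM plus a pseudocount of 0.1, over identifiers above 0 in either library. *POLR2B* passed it in *L. megarhynchos* (log2 ratio 4.08), among 25 of 267 identifiers with the ovary higher (9.36%), and as many, 25, with the ovary lower (9.36%). *CHRAC1* passed it in *L. luscinia* (2.64), among 18 of 180 identifiers with the ovary higher (10%), while 22 had the ovary lower (12.2%). *POLD2* in *L. megarhynchos* (-1.91) and *POLR2B* in *L. luscinia* (1.04) stayed within 4-fold. With a pseudocount of 1 *CHRAC1* was also within 4-fold, at 1.66.

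*POLR2B* and *CHRAC1* stood above the middle of the list of all ratios and *POLD2* below it. Without a pseudocount the median log2 ratio of ovary over testis was -0.70 over the 114 identifiers of *L. megarhynchos* and -0.55 over the 95 of *L. luscinia*, values that pairs of 1 and 1 read and of 1 and 2 reads give. Of the 114 in *L. megarhynchos*, 8 had a higher ratio than *POLR2B* (4.75) and 64 a higher ratio than *POLD2* (-1.93). Of the 95 in *L. luscinia*, 12 had a higher ratio than *CHRAC1* (2.85) and 17 a higher ratio than *POLR2B* (1.23). Scaling the libraries to the median of the 41 identifiers above 0 in all of them moved every log2 ratio by 0.78 in *L. megarhynchos* and by 1.72 in *L. luscinia*, which put *POLR2B* in *L. luscinia* past 4-fold (2.56) and *POLD2* at -1.14, and turned no direction.

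**Figure D3:**
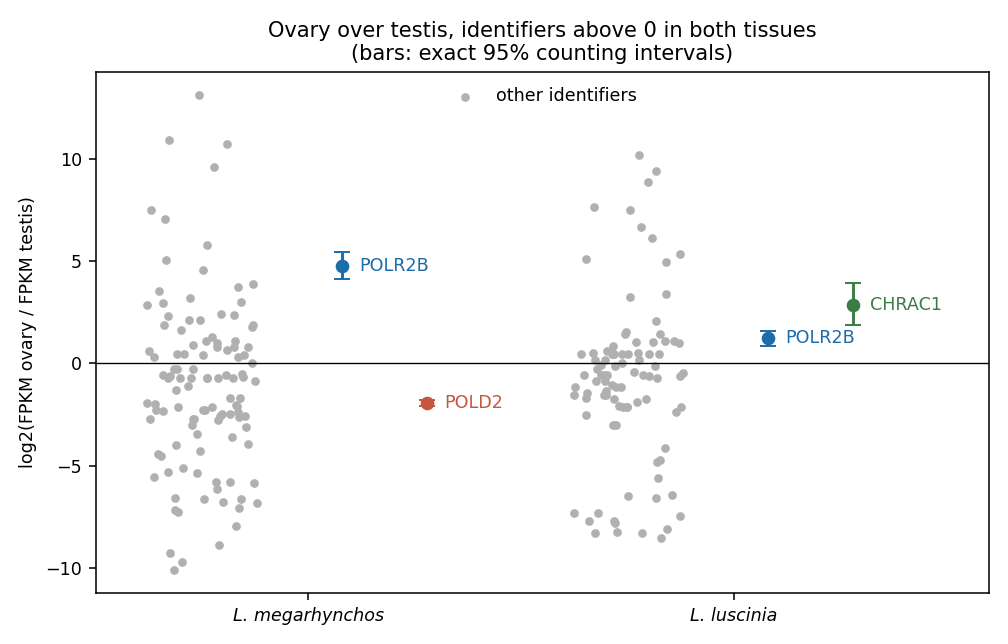
Log2 ratio of FPKM in ovary over testis, without a pseudocount, for identifiers above 0 in both tissues of *L. megarhynchos* (left) and of *L. luscinia* (right); grey points are other identifiers, coloured points the 3 genes, and bars their exact 95% counting intervals. *POLR2B* lies above 0 in both species (4.75 and 1.23), *CHRAC1* above 0 (2.85) and *POLD2* below 0 (-1.93).

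*POLR2B* was the only one of the 3 genes that could be compared between the species. Its FPKM in the ovary was 4.32 in *L. megarhynchos* against 0.879 in *L. luscinia*, a ratio of 4.92. In the testis it was 0.161 FPKM in *L. megarhynchos* against 0.375 FPKM in *L. luscinia*, a ratio of 0.430. *L. megarhynchos* was thus higher in the ovary and lower in the testis. In the ovary the log2 ratio with the pseudocount, 2.18, passed 4-fold, among 29 of 275 identifiers with *L. megarhynchos* higher (10.5%), against 11 with it lower (4%). It was within 4-fold with a pseudocount of 1 (1.502) and after median scaling (1.30). In the testis it was -0.86, within 4-fold, where *L. megarhynchos* was at least 4-fold higher at 23 of 259 identifiers (8.88%) and at least 4-fold lower at 20 (7.72%).

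The size of this species difference depends on what a read is worth in FPKM. Per the study, FPKM used the length of the gene on each GRC. Whether the share of the coding sequence found also enters what a read is worth was not tested. Across 41 identifiers with read pairs in both species, the *L. megarhynchos* ovary library had 1.57 times the reads of the *L. luscinia* one, a value on which only 2 identifiers fell directly and 6 with ratios of whole numbers up to 5. At that depth 1 read of *POLR2B* weighed 1.51 times as many FPKM in *L. megarhynchos* as in *L. luscinia*. Per library read, without that weight, *POLR2B* in the ovary was 3.27 times as high in *L. megarhynchos* as in *L. luscinia* (2.77 to 3.87). That is within 4-fold, and in the testis it was 0.285 times as high (0.167 to 0.465). Read pairs are in lowest terms, so a true pair may be a whole multiple in either species. The values per read, that of 1.51 included, thus hold only up to a ratio of whole numbers, which the intervals leave out. The share of GRC-carrying cells in each gonad of these birds is not given in the sources used here. Per the study, *L. megarhynchos* was sampled in South-Western Poland and *L. luscinia* in North-Eastern Poland. Species, bird, region, cell make-up and the number of copies of a gene on the GRC therefore cannot be told apart.

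For *POLD2* and *CHRAC1* the species could only be set side by side. *POLD2* was at 4.25 FPKM in the *L. megarhynchos* ovary against a listed 0 in the *L. luscinia* ovary, and at 16.2 FPKM against a listed 0 in the testes. *CHRAC1* was listed at 0 in the *L. megarhynchos* ovary against 3.85 FPKM in the *L. luscinia* ovary, and at 0 against 0.535 FPKM in the testes. Of the 366 identifiers above 0 in any library, 186 were above 0 in *L. megarhynchos* only (50.8%) and 99 in *L. luscinia* only (27%).

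The table was searched for the partners of the 3 proteins. It holds 769 symbols, and the share of all genes that have a GRC row was not analysed here, so nothing about the partners is read from how many of them have one. Of those 769 symbols, 346 were above 0 in any library (45%). Of 18 genes of RNA polymerase II and its assembly factors, *POLR2B* alone was in the table. Of 43 general transcription and elongation factors only *ELL*, an elongation factor, was in it, at 0 in all 4 libraries. Of 50 genes of DNA polymerases and the replication fork 5 were in the table and *POLD2* alone was above 0 in any library. The other 4 were *POLE*, the catalytic subunit of DNA polymerase epsilon, *PRIM2*, a primase subunit, *REV3L*, the catalytic subunit of DNA polymerase zeta, and *RFC2*, a subunit of the clamp loader, all listed at 0 in the 4 libraries. The other subunits of DNA polymerase delta, *POLD1*, *POLD3* and *POLD4*, and the *CHRAC1* partners *POLE3*, *BAZ1A* and *SMARCA5* had no row.

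Of 34 genes of chromatin remodelling and histone-fold proteins 6 were in the table and 3 were above 0, close to the share of all symbols, *CHRAC1* in *L. luscinia* and *CHD4* and *CHD5* in *L. megarhynchos*. *CHD4* and *CHD5* encode ATPases of nucleosome remodelling and deacetylase complexes. In *L. megarhynchos*, *CHD4* stood at 0.0729 FPKM in the ovary and 0.375 FPKM in the testis, from 45 and 142 reads, so that the testis level was 5.14 times that of the ovary (3.65 to 7.35). *CHD5* had 2 identifiers, and the higher one (XP_016158941) stood at 0.510 FPKM in the ovary of that species and 2.86 FPKM in the testis, a testis level 5.60 times that of the ovary (4.93 to 6.38). Both were thus higher in the testis, as *POLD2* was, and both were listed at 0 in *L. luscinia*. Of all identifiers above 0 in any library, 50.8% were so in *L. megarhynchos* only. That trait is thus not particular to these genes. The median log2 ratio of ovary over testis in that species was -0.70, which a pair of 1 and 1 read gives. Of the 114 identifiers above 0 in both tissues, 49 had a lower ratio than *POLD2* (-1.93). With the pseudocount, 25 of 267 identifiers (9.36%) were at least 4-fold lower in the ovary. Without symbols that begin with LOC 2 were left, among them *CHD5* (-2.28). *BPTF*, *BAZ2A* and *SMARCA4*, the other remodelling genes with a row, were listed at 0 in all 4 libraries.

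For each gene the identifiers with the most similar values were found by Euclidean distance over the 4 libraries in log2 of FPKM plus 0.1, among 365 others above 0. Nearest to *POLR2B* was *IGF1R*, a growth factor receptor, at a distance of 2.40, with 3.82 and 0 FPKM in the *L. megarhynchos* ovary and testis and 2.30 and 0.0729 FPKM in the *L. luscinia* ovary and testis. *LARP4*, an RNA-binding protein (XP_005062131, 2.48), and *PIAS1*, a SUMO ligase (2.49), came next. All 3 were higher in the ovary than in the testis in *L. megarhynchos*. *LARP4* was lower in the ovary in *L. luscinia*, at 0.384 FPKM against 0.563 FPKM in the testis. That pair is 1 and 2 reads in lowest terms, which makes 1 read in that ovary worth 0.384 FPKM. In the *L. megarhynchos* ovary 1 read of the same identifier was worth 0.00537 FPKM. The true pair may thus be a large multiple, so no counting interval is given for this ratio.

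*POLD2* had less similar company. *EFNB1*, a ligand of Eph receptors, lay at a distance of 2.80 with 3.47 and 6.26 FPKM in the *L. megarhynchos* ovary and testis, but it also had 0.442 FPKM in the *L. luscinia* ovary. *CHD5* followed at 3.75 and *LOC107603367* at 5.02, so the third nearest was already far away. *CHRAC1* had the closest match of the 3 genes, *PTP4A3*, a tyrosine phosphatase (XP_005042628), at a distance of 1.76. In *L. luscinia* it stood at 1.07 FPKM in the ovary and 0.510 FPKM in the testis. *RNF212B*, known in mice for a role in meiotic crossing over (2.15), and *AGO2*, an Argonaute protein (XP_005042573, 2.42), were next, and all of these were listed at 0 in *L. megarhynchos*.

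*PTP4A3* and *AGO2* are also near *CHRAC1* in the order of coding sequences of the collared flycatcher, whose annotation was used to find the genes. This order is that of the flycatcher's own chromosomes, not of the GRC, and the window of 30 coding sequences to each side was chosen after the values had been seen, so the counts are a description. Around *CHRAC1* the window held 21 other identifiers of 13 genes, of which 12 genes were above 0 in any library, beside 45% of all symbols. Of these 12, 8 were above 0 in *L. luscinia* only, 1 in *L. megarhynchos* only and 3 in both. Of the 346 symbols above 0 in any library, 25.7% were so in *L. luscinia* only and 52.3% in *L. megarhynchos* only. Identifiers of 1 gene share sequence, as the 6 of *PTK2*, a focal adhesion kinase, do, and are not independent.

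The neighbours of *CHRAC1* differed in level by orders of magnitude. *TRAPPC9*, a vesicle tethering factor and the next coding sequence before it, had 0.0941 FPKM in the *L. luscinia* ovary and 0.0446 FPKM in the testis, from 17 and 11 reads. *AGO2* (XP_005042573), 3 places after it, had 2.16 FPKM in the ovary and 0.0309 FPKM in the testis, from 154 and 3 reads. *CHRAC1* itself was the highest of the window in the *L. luscinia* ovary. The highest in the testis of that species was *LOC101821714*, with 1.17 FPKM.

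Around *POLD2* the window held 9 other genes, of which 4 were above 0, 3 of them in *L. megarhynchos* only and 1 in *L. luscinia* only, beside 45% of all symbols above 0 and 52.3% of those in *L. megarhynchos* only. *AEBP1*, a carboxypeptidase-like protein of the extracellular matrix and the next coding sequence after *POLD2*, had 0.163 FPKM in the *L. megarhynchos* ovary and 0.0768 FPKM in the testis, from 38 and 11 reads. *DBNL*, an actin-binding protein 3 places after *POLD2*, had 0.0836 FPKM in the ovary and 0.0170 FPKM in the testis, from 8 reads and 1 read. Both were thus far below *POLD2* and, unlike it, higher in the ovary, although the interval of *DBNL* (0.659 to 218 times) includes equal levels. *POLR2B* had 1 other gene in its window, *BMPR1B*, a BMP receptor, listed at 0 except for 0.00382 FPKM in the *L. megarhynchos* ovary.

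**Figure D4:**
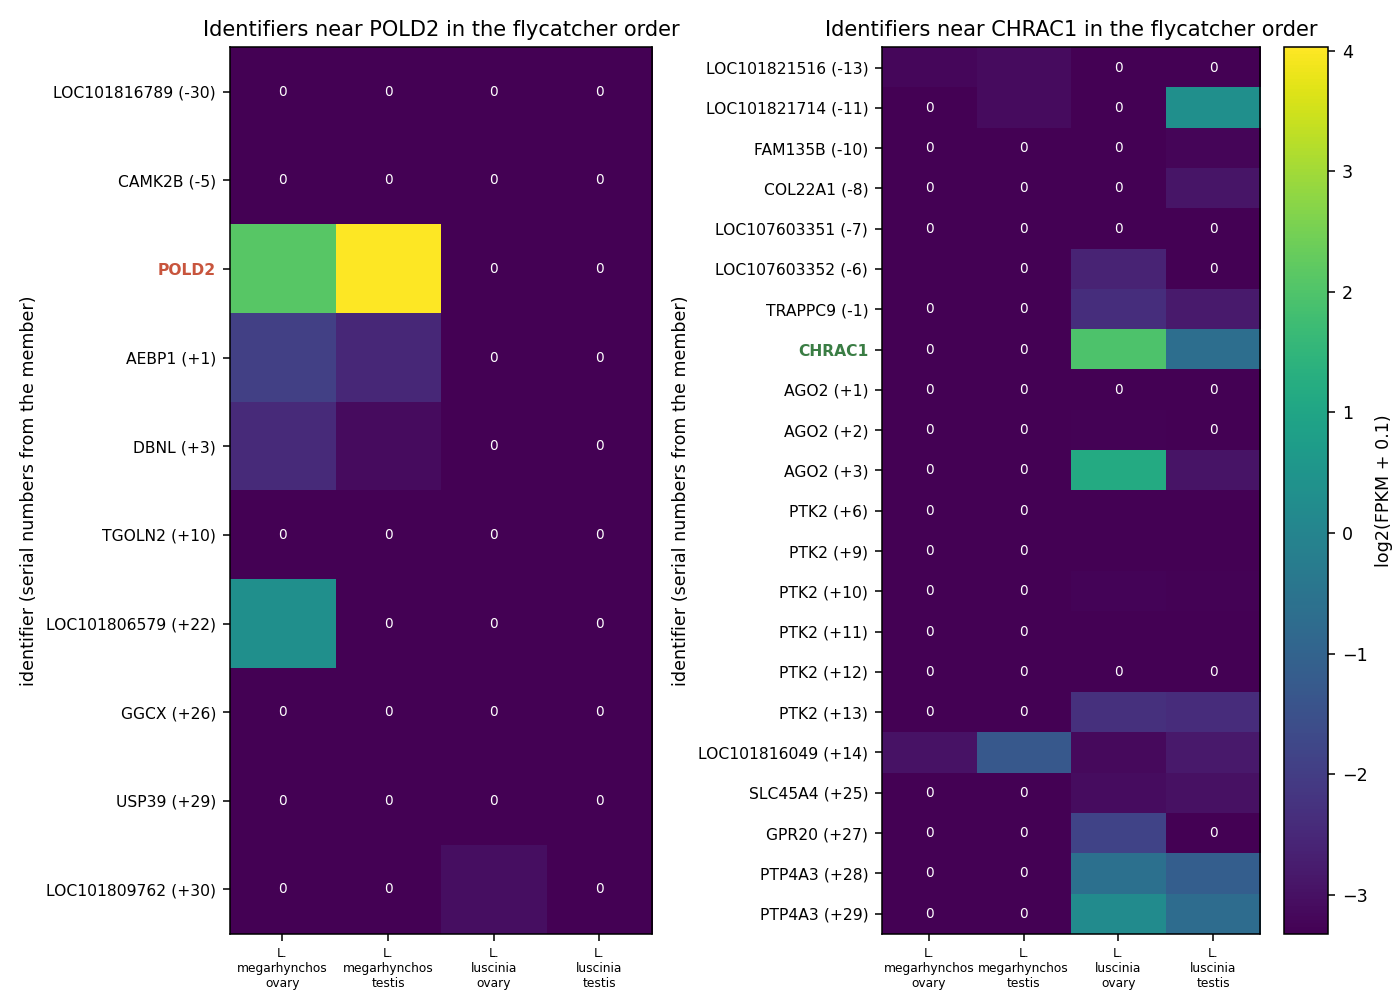
Level as log2 of FPKM plus 0.1 (colour) in the 4 libraries (columns) of identifiers within 30 coding sequences of *POLD2* (left) and of *CHRAC1* (right) in the flycatcher order; numbers in brackets are places from the named gene, and cells marked 0 are listed at 0. Near *POLD2*, 3 of the 4 other genes above 0 are so in *L. megarhynchos* only, and near *CHRAC1* 8 of 12 are so in *L. luscinia* only.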

How the data were processed

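Total RNA was treated with DNase, and stranded mRNA libraries made with oligo dT were sequenced as 150 bp single-end reads. Per the labels and the study's methods, reads were trimmed with Trimmomatic 0.39 and aligned with STAR 2.7.9a against each species' own somatic genome plus GRC assembly, and reads mapped uniquely to GRC exons were kept. Exons had been annotated with flycatcher coding sequences. The sources used here do not give the counting program or whether strand was used. The values the authors deposited are FPKM, a unit of reads scaled to gene length and library reads, with decimal commas, in 1 column per library for 799 identifiers. The study states that FPKM used the length of each gene on the GRC. By the read pairs in lowest terms, 1 read in the *L. luscinia* ovary was worth 0.0664 FPKM for *CHRAC1*. For *PTK2* it was worth 0.00536 FPKM (XP_016152384) and 0.000217 FPKM (XP_005042581). In the *L. megarhynchos* ovary 1 read of *POLR2B* was worth 0.00495 FPKM, while the whole level of *SYNE1* was 5.8e-06 FPKM. Whether length alone gives such weights, or the share of a coding sequence found also enters, was not tested.

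The members and gene lists were chosen with earlier results of these data known. Genes named are the members, genes of the lists with a row, and the 3 identifiers nearest to each member; all others were named after their values were seen. Ratios used a pseudocount of 0.1 FPKM where stated. Read pairs were recovered as fractions in lowest terms with a relative tolerance of 1e-08, or the rounding of the deposited values where larger, and the recovery was tested on simulated data. For 100% of the identifiers above 0 in both tissues of a species a pair was found (largest relative deviation 5.91e-06). Intervals are exact conditional binomial (Clopper-Pearson) 95% intervals, with 1 exception. For the ovary over testis ratio of *POLR2B* set between the species, the 95% interval is the conditional one of an odds ratio of read numbers. The relative depth between species used a tolerance of 1e-06 and was added after seeing the data. The alternatives tried were pseudocounts of 0.01 and 1, scaling to a median, identifiers of 1 symbol summed, minimum levels of 0.1 and 1 FPKM, and leaving out symbols that begin with LOC. Python 3.11.15, numpy 2.4.6, pandas 2.3.3, scipy 1.17.1 and matplotlib 3.10.9 were used. No genome was used, so no coordinates or sequences are given.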

Additional observations from a re-analysis of the deposited data

Results flagged for a closer look

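The contrast of the species in *POLR2B* had opposite directions in the 2 tissues. Its level was 4.32 FPKM in *L. megarhynchos* against 0.879 FPKM in *L. luscinia* in the ovary, and 0.161 FPKM in *L. megarhynchos* against 0.375 FPKM in *L. luscinia* in the testis. The log2 ratio of *L. megarhynchos* over *L. luscinia*, with the pseudocount of 0.1 FPKM, was 3.04 larger in the ovary than in the testis. With 1 library per species and tissue this difference was not tested.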

How the results depend on the processing

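No member ratio turned its direction under any alternative tried. A pseudocount added to both values and the summing of identifiers cannot turn one. Only median scaling and, between the species, the scale per read of the library could have done so. With a pseudocount of 1 the log2 ratio of ovary over testis of *POLR2B* came to 2.20 for *L. megarhynchos* and 0.45 for *L. luscinia*, that of *POLD2* was -1.71, and the ratio of *L. megarhynchos* over *L. luscinia* of *POLR2B* in the ovary was 1.502. Median scaling gave 2.56 for *POLR2B* in *L. luscinia*, -1.14 for *POLD2*, 4.25 for *CHRAC1* and 1.30 for *POLR2B* between the species in the ovary. The last of these and 1.502 lie within 4-fold, where 2.18 did not. Per read of the library, a scale added after seeing the data, *POLR2B* between the species was 1.71 in the ovary and -1.81 in the testis. That scale leaves out the length of the gene and any other weight of a read, and it holds only up to a ratio of whole numbers. Summing identifiers of 1 symbol could not move a member, since each has 1 identifier. Of the other 12 alternative ratios between tissues 6, and of the other 8 between species 4, stayed within counting error of the ratio reported.

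The share of lower identifiers depended on which were counted. Among those of at least 0.1 FPKM it was 79.3%, 12.7%, 57.1% and 28.3% for *POLR2B* in the *L. megarhynchos* ovary and testis and the *L. luscinia* ovary and testis, 77.6% for *POLD2* in the *L. megarhynchos* ovary, and 83.3% and 32.6% for *CHRAC1* in the *L. luscinia* ovary and testis. Without symbols that begin with LOC it was 84.8% and 92.8% for *POLR2B* in the testes of *L. megarhynchos* and *L. luscinia*, and 95.7% for *CHRAC1* in the *L. luscinia* testis.

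Counts of identifiers at least 4-fold apart moved with the pseudocount and with the leaving out of symbols that begin with LOC. With a pseudocount of 0.01, 42 were higher and 54 lower in ovary over testis in *L. megarhynchos*, 28 higher in *L. luscinia*, 59 higher and 28 lower between the species in the ovary, and 59 higher and 44 lower in the testis. With 1, the counts were 12 and 10, 5 and 8, 9 and 3, and 5 and 6 in the same order. At a minimum of 1 FPKM, 15 were higher and 7 lower between the species in the ovary and 13 higher in the testis, and median scaling gave 19 lower in the ovary. Without symbols that begin with LOC, 2 in place of 25 were lower in ovary over testis in *L. megarhynchos* and 0 in place of 22 in *L. luscinia*, and between the species 18 were higher and 7 lower in the ovary and 8 higher and 5 lower in the testis.

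No paired analysis was possible because each species and tissue has 1 library, and for the same reason no replicate could be left out. In lowest terms, the fewest reads of a member were the 11 of *CHRAC1* in the *L. luscinia* testis and the 20 of *POLR2B* in the *L. megarhynchos* testis. The true numbers may be whole multiples of these.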
